A study of Homo sapiens with 9 samples.

Results

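MDA-MB-231 is an established human cell line, derived from a triple negative breast tumour and mesenchymal in character. The comparison pools 5 libraries of cells that carry a potassium channel construct, 3 with Kir2.1 and 2 labelled Kv1.5, and sets them against 3 libraries of cells that carry RFP. These are the 8 libraries of the count table, out of 9 samples with labels. The first Kv1.5 replicate was not analysed here. Lentivirus delivered each construct, and FACS selected the fluorescent cells. The control cells express RFP, the Kir2.1 cells KCNJ2(Kir2.1)-Y242F-EGFP and the third group Kv1.5-T2A-his-EGFP. Both channel groups thus carry EGFP where the control carries RFP, and a single control line serves both, so channel, fluorophore and the history of each sorted line cannot be told apart. The labels call the replicates biological. Whether they were transduced separately is not stated, so p-values here may reflect only variation among cultures of 1 sorted line.

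Potassium channels set the resting membrane potential. Kir2.1 is an inward rectifier that holds the membrane near the potassium equilibrium, and Kv1.5 is a voltage-gated channel that opens on depolarization. Both are used to hyperpolarize cells, and membrane potential in tumour cells has been tied to division, migration and calcium entry.

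Library totals ran from 30970235 to 42753422 counts. KCNJ2, set aside here, stood at 843, 1385 and 1189 CPM (counts scaled to a library of 1e6, with TMM factors) in the Kir2.1 libraries and had 0 to 4 counts in each other library. For KCNA5, which encodes Kv1.5, neither Kv1.5 library had a count, so that label has no check from its own gene, and the counts of gene lists are also given for Kir2.1 alone. Across genes (log2 of CPM + 0.5), r was 0.978 to 0.996 within groups, 0.954 to 0.973 between Kir2.1 and Kv1.5 libraries and 0.931 to 0.968 between channel and RFP libraries. Genes are not independent replicates. Of 8 markers of mesenchymal breast cancer lines, none was under 1 CPM in every library, and ESR1, PGR, FOXA1 and CDH1 were under 1 CPM in all 8, as were 10 of 13 leukocyte markers, with CD3E, MS4A1 and TYROBP at 0. Summed fibroblast and endothelial markers stood at 25.3 to 137 CPM in RFP, 502 to 637 in Kir2.1 and 185 to 310 in Kv1.5, although 9 of the 14 were under 1 CPM in every library, among them the defining markers PDGFRA, FAP, DCN, COL3A1, VWF and CDH5. S100A4, which this line also expresses, carried most of that sum. Other markers of this list went up too: of 5 tested, 3 were common higher by the rule below and none common lower. Among them the endothelial receptor KDR had a mean of 2.52 CPM in RFP, 13.1 in Kir2.1 and 24.2 in Kv1.5.

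A change was counted as common when the mean of the 2 channel groups, weighted equally, differed from RFP at an adjusted p under 0.05 (edgeR's quasi-likelihood test) and all 5 channel libraries lay on the same side of all 3 RFP libraries. Of 16686 genes tested, 2179 were common higher (13.1%) and 1749 common lower (10.5%), together 3928 (23.5%). Counts in the gene lists below are read against these shares. The test alone called 5304 genes (31.8%), 2847 higher (17.1%) and 2457 lower (14.7%). Of the 1376 called genes whose libraries overlapped, 127 moved in opposite directions in the 2 channel groups. Common genes numbered 1766 with at least a 2-fold change in each channel group (1072 higher, 694 lower), and 404 with at least 8-fold (262 higher, 142 lower). With the 5 libraries fitted as a single group, 1644 genes were common higher and 1048 common lower. With both Kv1.5 libraries left out, 2429 of 15606 tested genes were higher and 1790 lower for Kir2.1 against RFP. These held 2884 of the 3928. Only 3 channel libraries then had to clear the RFP libraries, which is easier to meet than 5. List counts for Kir2.1 alone are read against these totals.

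The largest rises were genes close to silent in RFP cells. CDH11 (cadherin 11, a mesenchymal adhesion protein; chromosome 16, 64943753 to 65126112, GRCh38) stood at 0.0239, 0.0788 and 0 CPM in RFP, at 116, 178 and 146 in Kir2.1 and at 155 and 148 in Kv1.5. The 5 channel libraries lay within a narrow band, far above the control (log2 fold change 11.93, SE 0.42, adjusted p = 4.45e-09; 13.14 without RFP replicate 2). In bulk RNA, fewer cells of a kind and less RNA per cell cannot be told apart. CXCR4, the receptor of the chemokine CXCL12, stood at 0.0717, 0.0525 and 0.0288 CPM in RFP, at 24.3, 18.3 and 17.7 in Kir2.1 and at 50.4 and 26.3 in Kv1.5 (log2 fold change 8.96, SE 0.42, adjusted p = 4.83e-08). CCBE1, a secreted protein that helps activate the lymphatic growth factor VEGF-C, rose from 3 counts over the RFP libraries to 9.3 to 25.9 CPM, a ratio of counts of 780.2 (95% interval 266.8 to 3785, counting error only; the fitted log2 fold change was 9.40, and 10.17 without RFP replicate 1). PCSK1N, an inhibitor of a prohormone convertase, had 0 counts in RFP and 4.69 to 12 CPM in the channel libraries, at least 353.6-fold higher against a floor of 3 counts over the RFP group. MXRA8, a matrix-associated membrane protein, stood at 0.0288 to 0.0717 CPM in RFP and 23.8 to 44.3 in the channel libraries. The noncoding AFAP1-AS1, which runs opposite AFAP1, stood at 0.0263 to 0.0717 CPM in RFP and 41.4 to 91.6 CPM in the channel libraries, and since the strand setting of the counting is not given, reads of its partner cannot be told apart. Silent genes made up a share of the whole: 715 of the 2179 genes that rose had an RFP mean under 1 CPM, and 65 had no count in RFP. For comparison, 1281 of the 8403 tested genes with a promoter entry had an RFP mean under 1 CPM. Genes with no count in RFP passed the filter only through the channel libraries and could only rise, so their number cannot show an excess.

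The largest falls mirrored this, with genes that RFP cells expressed and the channel lines nearly lacked. CD70, a ligand of the TNF family, stood at 4.59, 6.36 and 11.1 CPM in RFP and had 0 counts in all 5 channel libraries, at least 441.5-fold lower against 3 counts over the channel libraries. ENG (endoglin, a TGF-beta co-receptor) stood at 61.1, 51.6 and 31.4 CPM in RFP and at 0.129, 0.216 and 0.195 in Kir2.1, and had 0 counts in both Kv1.5 libraries. MAGEB2, a cancer-testis antigen on chromosome X, stood at 77, 89.8 and 73.6 CPM in RFP and at 0 to 0.18 CPM in the channel libraries. SLC13A4, a sulfate transporter, stood at 8.38 to 8.91 CPM in RFP and at 0 to 0.0647 CPM in the channel libraries. No channel library came near the control for any of these. MUC5B, a secreted mucin, met the same rule on weaker ground, with 0.143, 2.55 and 27.6 CPM in the RFP libraries and 3 counts in all over the channel libraries (adjusted p = 0.0208, and 0.0505 to 0.0709 when any of Kv1.5 replicates 2 and 3 and Kir2.1 replicates 2 and 3 was left out). In all, 484 common lower genes had means under 1 CPM in both channel groups, and 16 had no count there. Of the 8403 tested genes with a promoter entry, 1162 were under 1 CPM in the mean of both channel groups. Genes with no count in the channel libraries passed the filter only through RFP and could only fall.

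**Figure D1:**
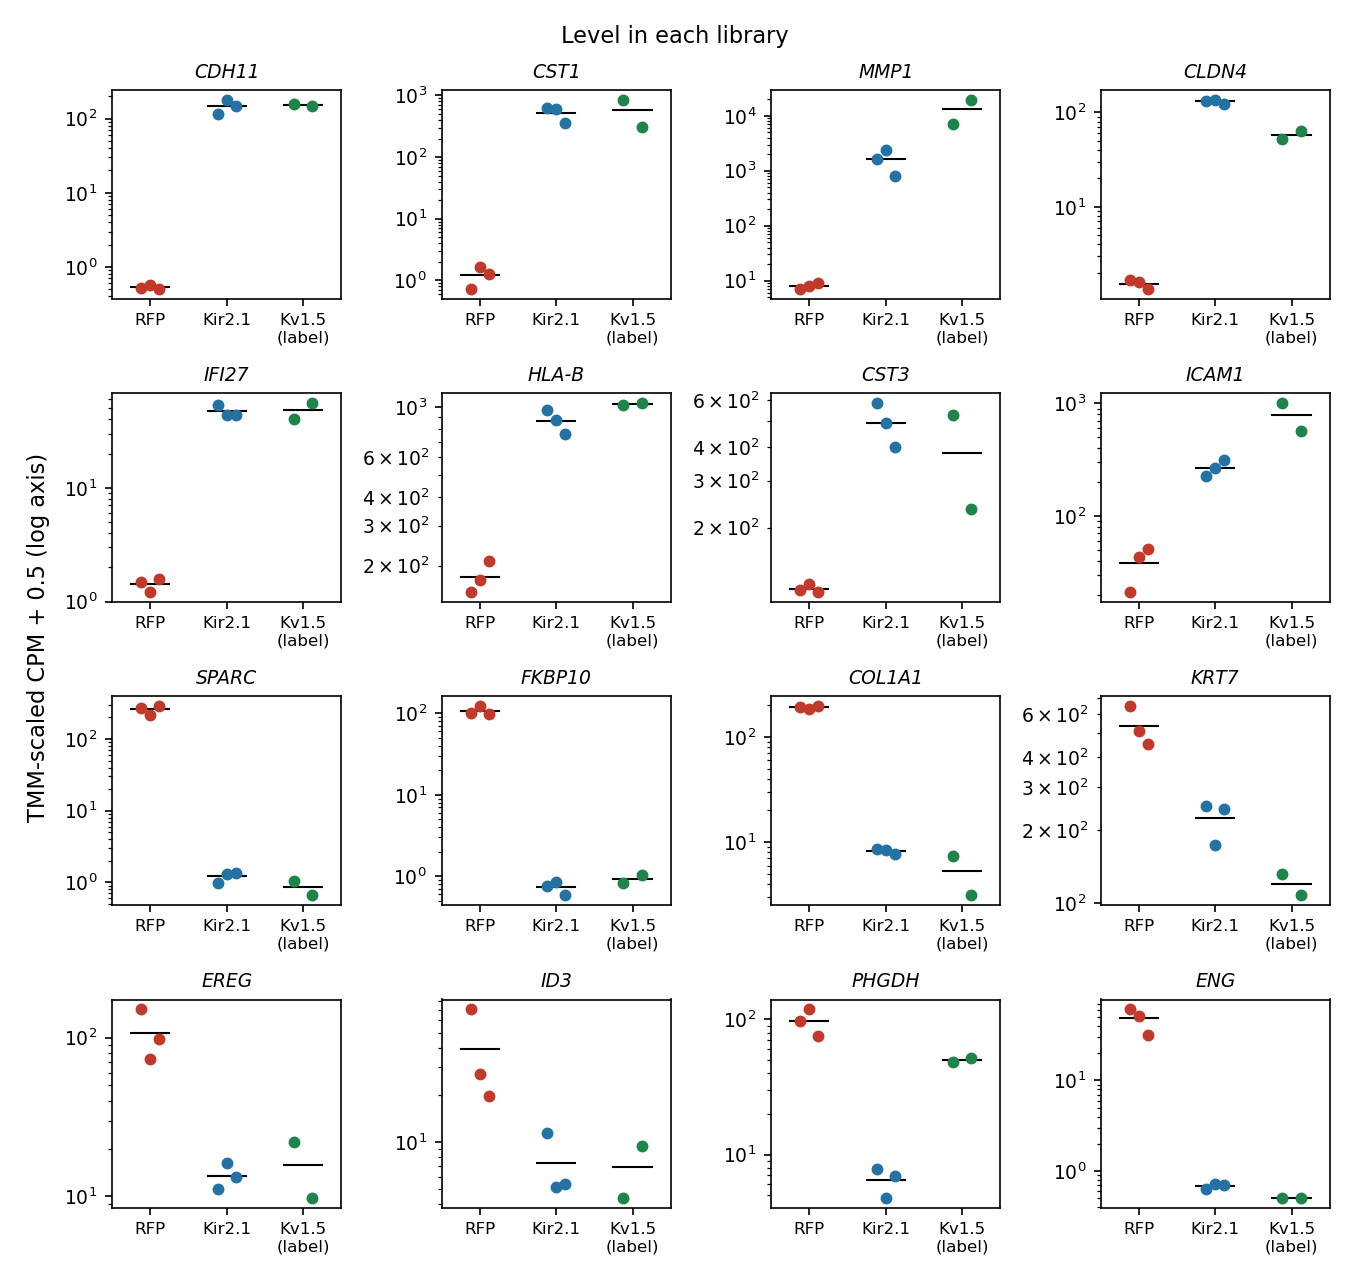
Level of 16 genes named in the text, 1 point per library, as TMM-scaled CPM + 0.5 on a log axis, with a line at each group mean (RFP n = 3, Kir2.1 n = 3, libraries labelled Kv1.5 n = 2). The 5 channel libraries lie above all RFP libraries for CDH11 through ICAM1 and below them for SPARC through ENG, and the PHGDH and CLDN4 panels show the channel groups apart from each other.

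Extracellular matrix genes fell more often than they rose. The matrix is a mesh of collagens, laminins and glycoproteins, and its collagens are folded and crosslinked by dedicated enzymes in the secretory pathway. Of 31 tested collagens and matrix glycoproteins, 11 were common lower and 4 common higher (11 and 7 for Kir2.1 alone). All genes had 10.5% common lower and 13.1% common higher. The median log2 fold change of the list was -0.43, against -0.004 over all genes. SPARC, a collagen-binding glycoprotein of remodelling tissue, stood at 269, 217 and 289 CPM in RFP, at 0.485, 0.811 and 0.865 in Kir2.1 and at 0.539 and 0.158 in Kv1.5. The gap spans more than 2 orders of magnitude (log2 fold change -8.99, SE 0.32, adjusted p = 4.45e-09). COL1A1, a chain of type I collagen, stood at 193, 184 and 196 CPM in RFP, 8.09, 7.87 and 7.23 in Kir2.1 and 6.91 and 2.63 in Kv1.5 (log2 fold change -4.97, SE 0.26, adjusted p = 1.29e-07). The basement membrane chain COL4A1 fell from 83.7 to 86.6 CPM to between 20.8 and 46, and COL7A1, of anchoring fibrils, fell from between 116 and 226 CPM to between 11.8 and 67.1. TNC (tenascin C) went the other way, from 95.1 to 107 CPM up to 155 to 341.

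The promoter of SPARC is shown because this gene went from over 200 CPM to under 1 CPM. The RefSeq sequence (GRCh38.p14, chr5:151686866-151687165, minus strand, 250 bases before the start and 50 after) is written 5′ to 3′, and neither motif searched here, TATAAA on the gene strand or TGACTCA on either strand, is in it. It has 11 CG dinucleotides, against a median of 27 over 8403 tested genes with a promoter entry.
SPARC: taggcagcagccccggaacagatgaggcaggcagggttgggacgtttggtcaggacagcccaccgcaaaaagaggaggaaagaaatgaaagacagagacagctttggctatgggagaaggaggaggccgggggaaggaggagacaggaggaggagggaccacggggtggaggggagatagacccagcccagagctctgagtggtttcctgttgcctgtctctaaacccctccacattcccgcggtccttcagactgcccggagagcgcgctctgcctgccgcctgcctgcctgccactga

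Collagen-modifying enzymes divided, with 5 of 24 common lower and 4 common higher (6 and 8 for Kir2.1 alone). FKBP10, a collagen chaperone, stood at 101, 123 and 98.7 CPM in RFP, at 0.259, 0.351 and 0.0838 in Kir2.1 and at 0.334 and 0.527 in Kv1.5 (log2 fold change -8.40, SE 0.30, adjusted p = 4.45e-09). P3H4, part of a prolyl hydroxylase complex, fell from between 43.7 and 50.9 CPM to between 8.26 and 12.5, and its gene neighbours FKBP10 on chromosome 17. P3H2, a prolyl hydroxylase, fell from between 181 and 217 CPM to between 30.9 and 76.9. LOXL4, a collagen crosslinking oxidase, rose from 6.26 to 20.3 CPM up to 67 to 154 (log2 fold change 2.82, SE 0.40). Among laminin chains, which build basement membrane and of which 3 were higher and 3 lower for Kir2.1 alone, LAMB3 rose by 1.51 on the log2 scale, and LAMA4 fell by 3.17, from 19.8 to 33.5 CPM to between 1.29 and 5.28. Of 15 integrin subunits, 3 rose and none fell (4 and none for Kir2.1 alone), among them the fibronectin receptor chain ITGA5 (log2 fold change 1.29) and the laminin receptor chain ITGA6 (0.79, adjusted p = 0.0164, and 0.0692 and 0.0804 without RFP replicate 1 or 2).

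Of 32 matrix proteases and inhibitors, 9 were common higher and 3 common lower, with a median of 0.76 (11 and 5 of 31, median 0.33, for Kir2.1 alone). MMP1, the interstitial collagenase, stood at 6.45, 7.43 and 8.69 CPM in RFP, at 1640, 2400 and 789 in Kir2.1 and at 7050 and 19400 in Kv1.5. Every channel library was far above the control, and the Kv1.5 libraries were above the Kir2.1 libraries (log2 fold change 9.26, SE 0.58, adjusted p = 1.42e-06; Kv1.5 minus Kir2.1 3.04, adjusted p = 0.00215). MMP9, a gelatinase, rose from 0.0576 to 0.119 CPM up to 3.71 to 10.3, whereas MMP2, the other gelatinase, fell from between 6.64 and 17.3 CPM to between 0.0257 and 0.129. PLAT (tissue plasminogen activator) stood at 66.6, 113 and 118 CPM in RFP and at 484 to 1240 in the channel libraries (log2 fold change 2.91, SE 0.23). The inhibitor TIMP1 rose by 1.98 and the membrane protease MMP14 by 1.06.

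Cystatins and cathepsins rose in most members, with few called differences between the channel groups. With 2 Kv1.5 libraries, a lack of calls does not show changes of equal size. Cathepsins are lysosomal proteases, and secreted cystatins bind and block the cysteine cathepsins. Of 21 tested members, 13 were common higher and 1 common lower, with a median log2 fold change of 1.07 (14 and 1, median 1.00, for Kir2.1 alone), and 1 of the 21 differed between the channel groups, against 16.8% of all genes. CST1, a salivary-type cystatin, stood at 0.215, 1.13 and 0.749 CPM in RFP, at 616, 601 and 358 in Kir2.1 and at 844 and 308 in Kv1.5 (log2 fold change 9.63, SE 0.66, adjusted p = 6.31e-06). Its neighbours on chromosome 20, CST4 and CST2, rose by 7.85 and 6.57, the latter by 7.96 without RFP replicate 3, and because these genes are near-copies of each other, single reads may have been shared out among them. CST3 (cystatin C) stood at 116, 122 and 114 CPM in RFP, 586, 494 and 399 in Kir2.1 and 527 and 234 in Kv1.5. The aspartic protease CTSD rose by 1.39 and the cysteine protease CTSB by 0.91 (SE 0.15), from 302 to 357 CPM up to 575 to 683. CSTA, an intracellular cystatin, went the other way, with 1.82 to 2.36 CPM in RFP and 1 count over the 5 channel libraries.

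Part of the MHC class I antigen presentation genes rose in both groups. Class I molecules display peptides that the proteasome makes and the TAP transporter carries into the endoplasmic reticulum. Of 22 members, 10 were common higher and none lower, with a median of 0.64 (13 and none for Kir2.1 alone). HLA-B stood at 152, 173 and 210 CPM in RFP, at 968, 876 and 761 in Kir2.1 and at 1020 and 1040 in Kv1.5 (log2 fold change 2.41, SE 0.19, adjusted p = 2.73e-06). HLA-C rose by 2.07 and the transporter subunit TAP1 by 1.87, from between 38.1 and 43.9 CPM to between 123 and 177. The class I heavy chains resemble each other, so reads may have been split between them. Of these 10 genes, 9 lie on chromosome 6 in stretches whose genes were higher as a body, described below.

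Interferon stimulated genes, the antiviral program, had 6 of 35 common higher and 1 lower, near the share of all genes (7 and none for Kir2.1 alone). Within the list IFI27 and BST2 stood out by size. IFI27 stood at 1, 0.709 and 1.09 CPM in RFP, 53.3, 42.8 and 43.4 in Kir2.1 and 39.7 and 55.2 in Kv1.5 (log2 fold change 5.65, SE 0.26, adjusted p = 3.28e-08). BST2 (tetherin, which holds budding virus at the membrane) stood at 4.04, 5.07 and 12.9 CPM in RFP and 85.2 to 169 in the channel libraries (log2 fold change 4.03, and 4.71 without RFP replicate 3).

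Inflammatory cytokines and NF-kB targets had 11 of 34 members common higher and none lower, with a median of 1.07 (10 higher and 3 lower, median 0.33, for Kir2.1 alone). ICAM1, a leukocyte adhesion molecule, stood at 20.5, 42.3 and 50.3 CPM in RFP, at 225, 264 and 317 in Kir2.1 and at 1010 and 569 in Kv1.5 (log2 fold change 3.61, SE 0.33, adjusted p = 1.07e-05). CSF1, the macrophage growth factor, stood at 122, 171 and 215 CPM in RFP, at 483, 722 and 605 in Kir2.1 and at 696 and 449 in Kv1.5. The channel groups overlapped for CSF1 (log2 fold change 1.80, SE 0.24). The NF-kB subunit RELB rose by 1.65 and the feedback inhibitor TNFAIP3 by 1.55. Of the 34 members, 16 differed between the channel groups, against 16.8% of all genes.

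Genes induced by ERK, the mitogen-activated kinase, and immediate early genes rose in a part of their members. Of 30 ERK output and feedback genes, 9 were common higher and 2 lower (7 and 2 for Kir2.1 alone), and of 30 immediate early genes 8 were higher and 1 lower (5 of 29 and 3 for Kir2.1 alone). DUSP6, an ERK phosphatase, stood at 134, 222 and 231 CPM in RFP, at 261, 399 and 455 in Kir2.1 and at 964 and 887 in Kv1.5 (log2 fold change 1.58, SE 0.24, adjusted p = 0.000438). All 5 were above the control, but Kir2.1 replicate 1 only narrowly. ERRFI1, an inhibitor of EGF receptor kinases, rose by 0.83 in Kir2.1 and 3.54 in Kv1.5, JUNB, an AP-1 subunit, by 0.79 and 3.19, and SPRY2, a feedback inhibitor, by 1.25 and 2.5. With the 5 libraries fitted as a single group, ERRFI1 and JUNB no longer passed (adjusted p = 0.0513 for each), nor did TNFAIP3 (0.054). IER3 stood at 391 to 553 CPM in RFP and 1100 to 3430 in the channel libraries (log2 fold change 2.03, SE 0.19).

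Growth factor ligands and receptors split evenly, with 7 of 32 members of the EGF receptor and ligand list common higher and 7 lower (8 and 6 for Kir2.1 alone). AREG (amphiregulin) and EREG (epiregulin), ligands of the EGF receptor, are encoded close to each other on chromosome 4 and moved in opposite directions. AREG stood at 19.3, 17.5 and 24.5 CPM in RFP, 56, 42.9 and 65 in Kir2.1 and 200 and 72.7 in Kv1.5 (log2 fold change 2.08, SE 0.31, adjusted p = 0.000392). EREG stood at 151, 73 and 97.1 CPM in RFP, 10.6, 15.7 and 12.7 in Kir2.1 and 21.5 and 9.22 in Kv1.5 (log2 fold change -2.92, SE 0.29, adjusted p = 2.64e-05). Among other ligands, PDGFA fell by 1.76 and PDGFB by 3.58, and PGF (placental growth factor) fell from between 27.3 and 54.7 CPM to between 2.87 and 4.55. The receptor MET, which binds hepatocyte growth factor, rose by 0.94.

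The promoters of this pair are shown since neighbouring genes of like function moved apart. Both RefSeq windows (GRCh38.p14, plus strand, EREG at chr4:74364895-74365194 and AREG at chr4:74444886-74445185) hold TATAAA, in capitals, which 4.08% of 8403 tested promoters hold, and EREG has 12 CG dinucleotides against 27 in AREG.
EREG: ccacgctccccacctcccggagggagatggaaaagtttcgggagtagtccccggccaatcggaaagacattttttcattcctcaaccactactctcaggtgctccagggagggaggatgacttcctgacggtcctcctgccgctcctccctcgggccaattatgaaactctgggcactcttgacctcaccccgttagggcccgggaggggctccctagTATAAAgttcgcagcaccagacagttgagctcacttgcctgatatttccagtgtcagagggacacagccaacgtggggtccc
AREG: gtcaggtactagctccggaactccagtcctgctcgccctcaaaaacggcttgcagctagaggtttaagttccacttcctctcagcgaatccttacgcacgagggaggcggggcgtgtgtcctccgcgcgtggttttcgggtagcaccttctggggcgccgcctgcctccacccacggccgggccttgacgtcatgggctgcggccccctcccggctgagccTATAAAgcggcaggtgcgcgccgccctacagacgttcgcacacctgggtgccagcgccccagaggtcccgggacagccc

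The TGF-beta and BMP list had 7 of 46 members common higher and 7 lower, and its Kir2.1 count was 8 and 13. Common genes were 30.4% of the list in the pooled contrast, against 23.5% of all genes. TGFB1, the ligand, stood at 30.7, 27.3 and 26.7 CPM in RFP, 90.9, 79.6 and 66.4 in Kir2.1 and 65 and 63.6 in Kv1.5 (log2 fold change 1.34, SE 0.17). ENG was given above, and INHBB, an activin subunit, fell by 1.99. ID3, a BMP target that blocks differentiation factors, stood at 70.4, 26.6 and 19.3 CPM in RFP and at 3.88 to 10.9 in the channel libraries (log2 fold change -2.55, SE 0.48, and -1.80 without RFP replicate 1). Of 45 chemokine receptors, ephrins, semaphorins and neuropilins, 10 were higher and 8 lower (11 and 9 of 42 for Kir2.1 alone). NRP1, a co-receptor of semaphorins and VEGF, rose by 1.2, and SEMA3E, a repulsive guidance ligand, fell from between 5.5 and 11.8 CPM to between 0.614 and 1.03.

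Epithelial genes did not move as a block. Of 28 junction and keratin genes, 5 were common higher and 6 lower (5 and 9 of 27 for Kir2.1 alone). CLDN4, a tight junction protein, stood at 1.19, 1.08 and 0.835 CPM in RFP, 133, 135 and 123 in Kir2.1 and 52.2 and 62.7 in Kv1.5 (log2 fold change 6.37, SE 0.22, adjusted p = 4.45e-09), with every Kir2.1 library above both Kv1.5 libraries. CLDN7 rose by 2.94. Among keratins named here, KRT7 stood at 647, 510 and 450 CPM in RFP, 251, 173 and 243 in Kir2.1 and 131 and 107 in Kv1.5 (log2 fold change -1.72, SE 0.18), and KRT18 fell by 1.17 with a highest channel value of 273 against a lowest RFP value of 284 CPM. KRT81, a hair keratin with close paralogs, stood at 435, 342 and 385 CPM in RFP, 90.9, 87.5 and 90.9 in Kir2.1 and 4.47 and 4.93 in Kv1.5 (adjusted p = 0.052 with the 5 libraries as a single group). Among mesenchymal genes 4 of 19 rose and 3 fell (3 and 5 of 18 for Kir2.1 alone), and VIM (vimentin) did not pass (log2 fold change -0.46, SE 0.19, adjusted p = 0.0787; it passed with DESeq2, adjusted p = 0.0439, and without RFP replicate 3, 0.0331). VIM stood at 2770 to 3920 CPM in RFP, 2920 to 4010 in Kir2.1 and 1750 and 1990 in Kv1.5. S100A4, a calcium-binding protein of motile cells, rose from 18.7 to 110 CPM up to 156 to 614 (log2 fold change 2.26, SE 0.51, adjusted p = 0.00924, and 0.0885 with no filter on low counts). Luminal markers summed to 133 to 146 CPM in RFP, 160 to 183 in Kir2.1 and 344 to 449 in Kv1.5. Basal epithelial markers summed to 375 to 457, 124 to 142 and 96.6 to 142 CPM in the same order, and leukocyte markers to 129 to 262, 113 to 145 and 20.8 to 70.4. KRT81, on the basal list, carried most of the basal sum in RFP (342 to 435 CPM) but little of it in Kv1.5 (4.47 and 4.93). Basal markers thus did not fall as a set, and of 9 tested, 1 was common higher and 1 common lower. Nor did leukocyte markers: of 4 tested, 2 were common higher and none common lower, with a median log2 fold change of 1.54. Their sum rests on few genes, since 10 of 13 were under 1 CPM in every library. The part of these shifts in marker sums in the changes of epithelial genes was not tested.

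The CLDN4 promoter (RefSeq, GRCh38.p14, chr7:73830746-73831045, plus strand) is shown because the gene went from near 1 CPM to over 50 CPM in each channel library. It holds TGACTCA, the consensus bound by AP-1 dimers, in capitals. On either strand (TGACTCA or TGAGTCA) 3.37% of tested promoters hold it, and CLDN4 has 5 CG dinucleotides.
CLDN4: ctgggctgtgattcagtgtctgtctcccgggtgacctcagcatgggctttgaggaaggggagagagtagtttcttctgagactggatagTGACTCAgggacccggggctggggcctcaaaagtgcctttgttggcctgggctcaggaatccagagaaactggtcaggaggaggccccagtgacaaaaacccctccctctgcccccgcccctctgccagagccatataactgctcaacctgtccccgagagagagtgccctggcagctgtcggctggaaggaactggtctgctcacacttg

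A part of the DNA replication and mitosis genes fell, and their number depended on the Kv1.5 libraries. Of 37 replication and S phase genes 18 were common lower and none higher, and of 37 mitosis genes 11 were lower and none higher, with medians of -0.72 and -0.91. For Kir2.1 alone the counts were 8 lower and 1 higher (median -0.31) and 5 lower and 1 higher (median -0.37), and with the 5 libraries as a single group 6 and 1 were lower. PCNA, the sliding clamp of DNA polymerase, stood at 314, 311 and 349 CPM in RFP, 284, 234 and 248 in Kir2.1 and 104 and 177 in Kv1.5 (log2 fold change -0.78, SE 0.18, adjusted p = 0.007, and 0.12 for Kir2.1 alone and 0.139 with the 5 libraries as a single group). MCM6, part of the replicative helicase, fell by 0.40 in Kir2.1 and 1.80 in Kv1.5 (adjusted p for Kir2.1 alone 0.0666), and POLE, the leading-strand polymerase, by 0.72 and 2.15. With the 5 libraries as a single group neither passed (adjusted p = 0.137 for MCM6 and 0.0652 for POLE). CCNB1 (cyclin B1) stood at 469, 478 and 511 CPM in RFP, 424, 320 and 364 in Kir2.1 and 222 and 47.6 in Kv1.5. Its call (log2 fold change -1.12, adjusted p = 0.0418) was lost without any of the RFP or Kir2.1 libraries, at 0.0513 to 0.0901, and with the 5 libraries as a single group (0.291), while without Kv1.5 replicate 2 the change was -1.87. TOP2A, which untangles chromosomes, fell by 1.34 (log2 fold change -2.02 without Kv1.5 replicate 2, and adjusted p = 0.186 with the 5 libraries as a single group). The proliferation marker MKI67 was called (adjusted p = 0.0297) but not common, since Kir2.1 replicates at 673, 1000 and 954 CPM overlapped RFP at 1110, 1020 and 864, and the call was lost without any RFP replicate but the third (0.0742 and 0.0743) and without any Kir2.1 replicate (0.0519 to 0.0565).

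Of 17 CDK inhibitors and cyclins, 4 rose and 6 fell (5 and 4 for Kir2.1 alone). CDKN1A (p21, a brake on cyclin-dependent kinases) stood at 80.3, 68.7 and 83.1 CPM in RFP, 190, 173 and 152 in Kir2.1 and 411 and 277 in Kv1.5 (log2 fold change 1.65, SE 0.18). CDK2, a kinase of the G1 to S transition, stood at 192, 189 and 176 CPM in RFP, 94.4, 92.3 and 100 in Kir2.1 and 80.6 and 65.1 in Kv1.5 (log2 fold change -1.15, SE 0.14, adjusted p = 0.00011). For neither gene did RFP and channel libraries overlap.

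Of 37 glycolysis and hypoxia genes 7 were lower and 2 higher (6 and 3 for Kir2.1 alone), with GAPDH lower by 1.02 and PKM by 0.89 on the log2 scale, the latter by 0.33 in Kir2.1 and 1.44 in Kv1.5 (adjusted p for Kir2.1 alone 0.173). ADM (adrenomedullin, a hypoxia target) stood at 261, 171 and 147 CPM in RFP, 42.2, 44 and 30.2 in Kir2.1 and 66 and 93.5 in Kv1.5. Serine and one-carbon genes split 3 and 3 of 29 (1 higher and 7 lower of 28 for Kir2.1 alone). In this list 20.7% were common, against 23.5% of all genes. PHGDH, the entry enzyme of serine synthesis, stood at 97.1, 119 and 75.5 CPM in RFP, 7.34, 4.24 and 6.45 in Kir2.1 and 47.7 and 51 in Kv1.5, with log2 fold changes of -4.01 and -0.98 (adjusted p of the difference 6.2e-05, and of the change with the 5 libraries as a single group 0.0889). Unfolded protein and integrated stress genes had 3 of 32 common higher and 1 lower (5 and 7 for Kir2.1 alone). The test alone called 13 of them higher and 3 lower, against 17.1% and 14.7% of all genes. Of the 32, 21 differed between the channel groups, against 16.8% of all genes. ERN1 (IRE1, a sensor of unfolded protein) rose by 0.68 in Kir2.1 and 2.81 in Kv1.5 (adjusted p = 0.0603 with the 5 libraries as a single group). Of 13 proteins encoded in the mitochondrial genome none was common, and of 48 cytosolic ribosomal proteins 2 were lower (7 for Kir2.1 alone).

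Of 25 tested potassium channel genes other than KCNJ2, 4 were common higher and 4 lower (5 and 3 of 22 for Kir2.1 alone). Common genes were 32% of this list, against 23.5% of all genes. KCNJ8, a subunit of ATP-sensitive inward rectifiers, stood at 2.65, 3.15 and 3.08 CPM in RFP, 0.259, 0.0541 and 0.168 in Kir2.1 and 0.0514 and 0.105 in Kv1.5 (log2 fold change -4.70, SE 0.41, adjusted p = 7.03e-06). KCNQ3, a subunit of the M current, fell from between 3.51 and 7.52 CPM to between 0.395 and 1.17, and KCNS3, a silent modifier of Kv2 channels, rose by 0.89. Of 39 genes of sodium and calcium transport and calcineurin signalling, 3 rose and 4 fell (6 and 3 of 38 for Kir2.1 alone). Here 17.9% were common, below the share of all genes. ATP1B1, the beta subunit of the sodium pump, stood at 108, 90.4 and 106 CPM in RFP, 179, 242 and 196 in Kir2.1 and 541 and 516 in Kv1.5 (log2 fold change 1.70, SE 0.17). The calcium release channel ITPR2 fell by 1.07. Cancer-testis antigens, normally confined to germ cells, were tested for 7 of 33 genes in the table, and 4 rose and 2 fell, as for Kir2.1 alone. Common genes were 85.7% of those tested, against 23.5% of all genes. A member silent in every group does not pass the filter on counts, which favours members that differ, so this share cannot show an excess. PAGE5 rose from 3 counts over RFP to 7.7 to 20 CPM, a ratio of 527.1 (95% interval 180.2 to 2558; fitted log2 fold change 8.87, and 8.28 and 11.99 without RFP replicate 1 or 2), while MAGEB2 fell as given above.

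**Figure D2:**
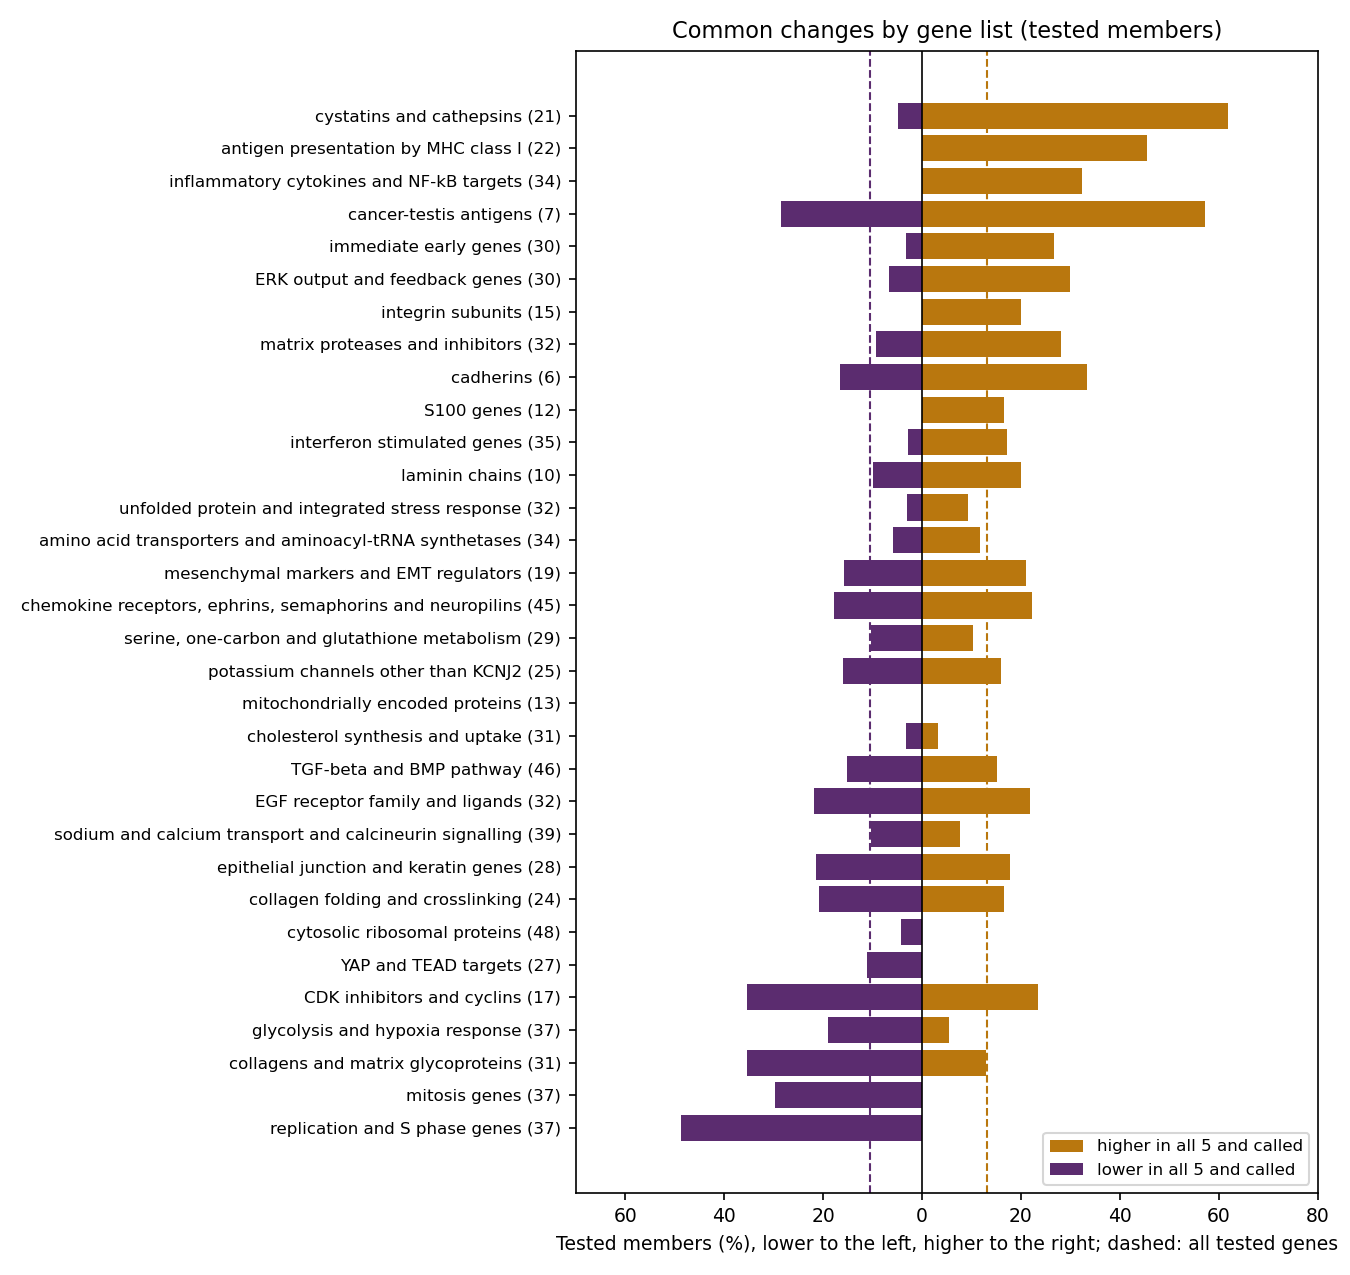
Share of tested members of each gene list that were common higher (to the right) or common lower (to the left), with the number tested in parentheses. Dashed lines mark the shares over all 16686 genes, 13.1% higher and 10.5% lower; cystatins and cathepsins lead on the right and replication genes on the left.

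The size of the common changes differed between the channel groups for 738 of the 3928 genes (18.8%, against 16.2% of 12758 genes that were not common and 2800 of all genes, 16.8%). This difference uses no RFP library, but membership in the common set limits how far the groups can lie apart. Of the common higher genes that differed, 357 were further from RFP in Kv1.5 and 67 in Kir2.1, and of the common lower genes 264 and 50. In 3099 common genes the fitted values of the groups were within 2-fold of each other. Evenness was ranked among common genes changed at least 4-fold in both groups, with at least 20 CPM on the higher side. Within these the most even rises were VSTM2L, ECHDC3, IFI27, FAM83A and SOX12, and the most even falls NUP210, P3H4, ID3, PGF and SLC16A6. ECHDC3, a mitochondrial protein of fatty acid metabolism, stood at 4.73, 6.41 and 4.49 CPM in RFP, 27.1, 22.3 and 27.4 in Kir2.1 and 24.6 and 26.8 in Kv1.5. HMGA1, a chromatin architecture protein, was even too, at 716 to 1010 CPM in RFP and 1950 to 2570 in the channel libraries (log2 fold change 1.36 in Kir2.1 and 1.37 in Kv1.5). Evenness was part of the rule that chose most of these genes and is a description.

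**Figure D3:**
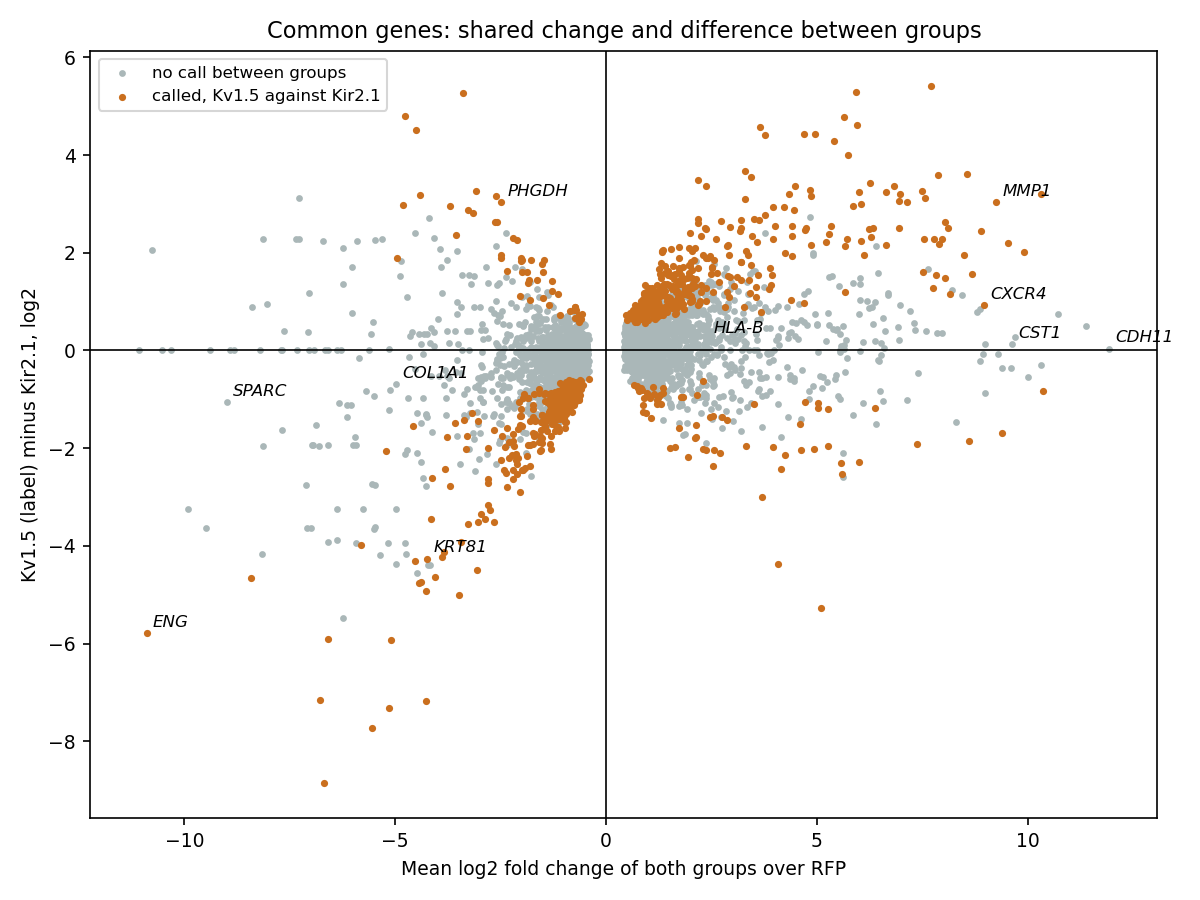
Common genes (n = 3928), 1 point each, with the mean log2 fold change of both channel groups over RFP on the x axis and the log2 difference between Kv1.5 and Kir2.1 on the y axis, in orange where that difference was called (738). CDH11 and CST1 lie near 0 on the y axis, while MMP1 and PHGDH (both 3.04), KRT81 (-4.26) and ENG (-5.78) do not; the wedge shape follows from requiring all 5 libraries on the same side.

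The common genes were unevenly spread over chromosomes. On chromosome X 30.4% of 546 tested genes were common higher and on chromosome 6 24.7% of 900, against 13.1% of all genes, while on chromosome 12 28.8% of 896 and on chromosome 15 25% of 524 were common lower, against 10.5%. The median log2 fold change was -0.39 on chromosome 12 and -0.33 on 15, and 0.34 on chromosomes 18 and 21. In single libraries the chromosome 12 median ran from -0.35 to -0.27 in the 5 channel libraries and from -0.02 to 0.04 in RFP, with no overlap. In windows of 10 Mb with at least 20 tested genes, a look added after the counts were seen, chromosome 12 from 20 to 30 Mb had 26 of 47 genes common lower and a median of -0.81, and chromosome X from 40 to 50 Mb had 52 of 82 common higher and a median of 0.92. The window of chromosome 6 from 30 to 40 Mb, which holds most class I genes, had 95 of 202 genes common higher and a median of 0.72. With a threshold of 0.5 set after the values were seen, 18 of 272 windows were higher and 14 lower as a body, and they held 22.8% of common genes and 13% of tested genes. The windows were chosen by the same fold changes that define common genes, so such an excess follows from the choice. Outside these windows 20.9% of 14509 genes were common. KRT7, KRT18 and KRT81 and 9 of the 10 class I genes lie inside such windows. So do PCSK1N, AFAP1-AS1, CCBE1, MXRA8, PAGE5, ERRFI1, IER3, TIMP1, RELB, CDKN1A, HMGA1, TGFB1, ITGA5, NRP1, GAPDH, ITPR2, CDK2, POLE and KCNJ8. None of the common members of the collagen and matrix glycoprotein, cadherin, and cystatin and cathepsin lists does. ITGA5, which rose, lies in a window that was lower as a body (chromosome 12 from 50 to 60 Mb, median -0.56). The part of a shared regional shift in the changes of the genes named here was not tested.

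**Figure D4:**
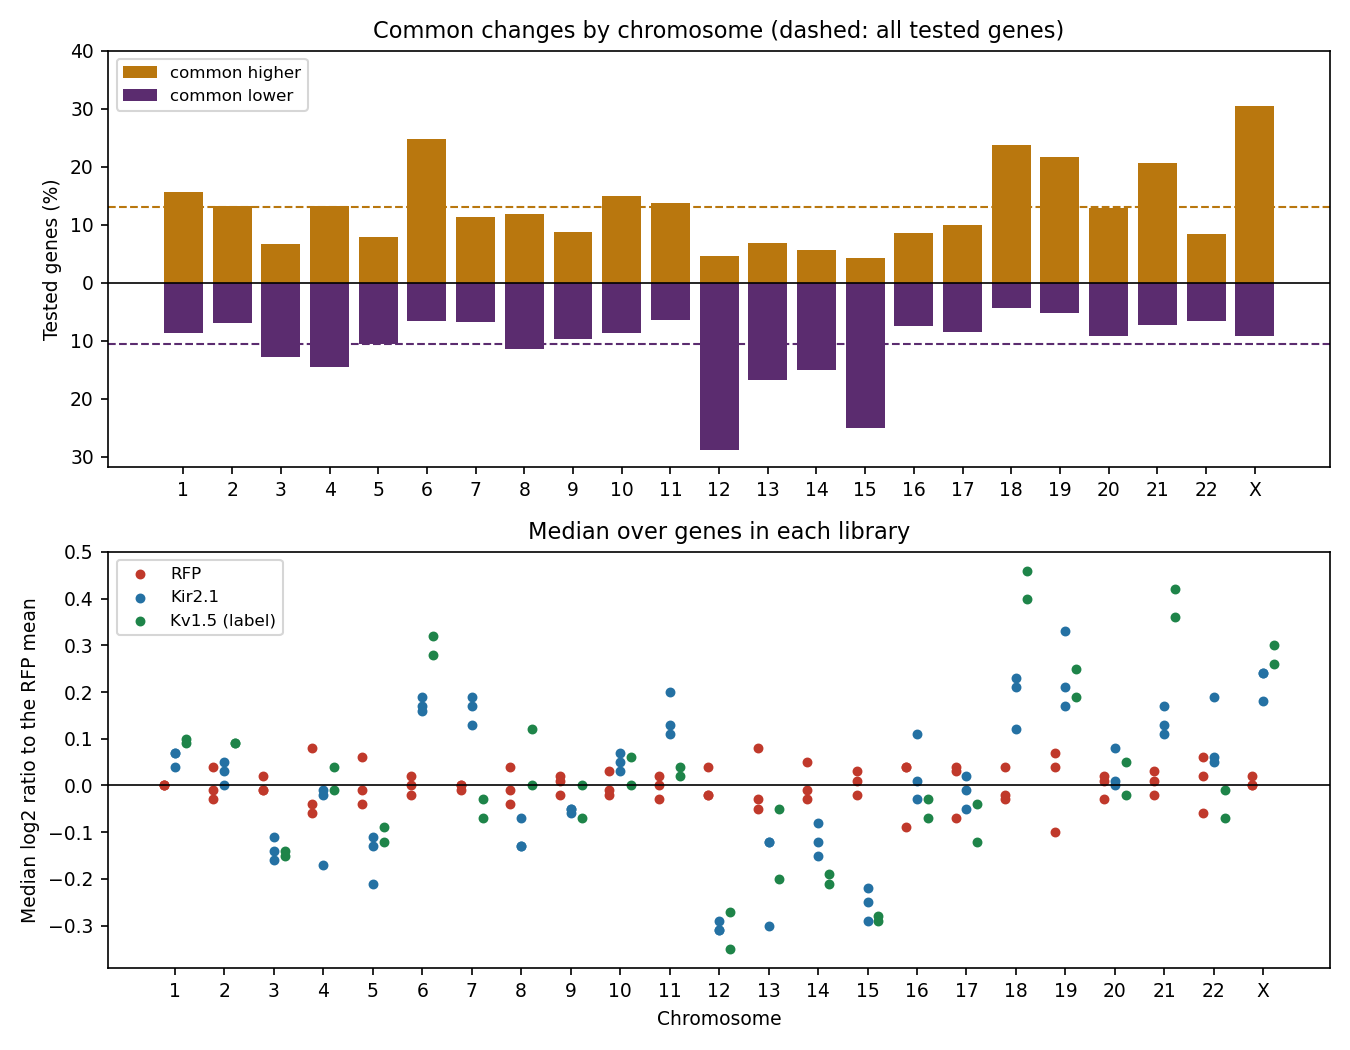
Top, share of tested genes on each chromosome that were common higher (up) or common lower (down), with dashed lines at 13.1% and 10.5% for all genes. Bottom, median over genes of the log2 ratio to the RFP mean, 1 point per library. On chromosomes 12 and 15 all channel libraries lie below the RFP libraries, and on 6, 18, 19, 21 and X above. By smaller gaps they also lie below on chromosomes 3, 5 and 14 and above on chromosome 1.

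Promoters of the genes that changed most were poorer in CG. Among 125 genes common higher by at least 8-fold in both groups with a promoter entry the median was 9 CG dinucleotides, among 47 common lower by 8-fold 11, and over all 8403 it was 27. Genes under 1 CPM in RFP had a median of 19 (n = 1281) and genes under 1 CPM in the channel groups 18 (n = 1162). TATAAA was present in 8.80% and TGACTCA or TGAGTCA in 7.20% of the 8-fold higher set, against 7.57% and 5.54% among genes under 1 CPM in RFP. A match of letters is a description and not a binding site.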

How the data were processed

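The deposited table holds whole-number read counts per Ensembl gene, made by the authors from single-end 50 base stranded mRNA libraries. Per the submitters' processing notes FastQC, Trimmomatic, STAR, edgeR and GRCh38 were used. No source used here gives the counter, its strand setting or the gene annotation. KCNJ2 was removed, genes were filtered by group (filterByExpr), and edgeR 4.0.16 (R 4.3.3; TMM factors, robust quasi-likelihood test, 5 residual degrees of freedom) was fitted once to 8 libraries in 3 groups, with the mean of both channel groups minus RFP as contrast and Benjamini-Hochberg adjustment over 16686 genes. SEs were derived from F. Levels are CPM on TMM-scaled libraries and are not per length, so they do not compare genes. Library totals were 30970235 to 42753422. The members and lists were chosen with earlier results of these data known. Named genes were the 8 largest rises and 8 largest falls by the smaller group change, and the 6 most abundant each way. The 5 most even each way were added, within the limits given above. So were the 2 leading members of each list with at least 3 common members. KCNA5, CDH11, DUSP6, MKI67 and VIM were also named, and 41 genes were added after their values were seen. Gene positions came from GENCODE 29 for 58497 of 60715 identifiers, and promoters from RefSeq, matched by symbol for 14740. The fit was tested on simulated data. DESeq2 1.42.0, limma 3.58.1 voom and other settings were alternatives. Some genes are not reported here.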

Additional observations from a re-analysis of the deposited data

Results flagged for a closer look

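The size of the change differed between the channel groups for 41 of 125 named genes, by the edgeR contrast of Kv1.5 minus Kir2.1 (log2). Over all genes the share was 16.8%, but named genes were in part chosen by size or after the results were seen. Values were above 0 for MMP1 3.04, CXCR4 0.93, LINC01088 3.2, ICAM1 1.55, SNHG11 1.09, CLDN7 1.51, PLAT 1.09, KDR 0.88, ERRFI1 2.7, AREG 1.32, IER3 1.33, JUNB 2.4, SPRY2 1.25, ERN1 2.12, ATP1B1 1.36, RELB 0.84, CDKN1A 1, DUSP6 1.32, TNFAIP3 1.53, LAMB3 1.07, SLC6A9 1.58, ADM 1.04 and PHGDH 3.04. They were below 0 for AFAP1-AS1 -0.82, CLDN4 -1.18, VIM -0.88, PCNA -0.86, PKM -1.12, MCM6 -1.4, MKI67 -2.18, POLE -1.43, FANCI -0.88, COL4A1 -0.79, KRT7 -0.9, IER5L -1.11, COL7A1 -1.87, LAMA4 -1.27, LINC01234 -2.01, PDGFB -1.48 and KRT81 -4.26. ENG, at 0 counts in both Kv1.5 libraries, had a fitted difference of -5.78 that depends on the prior count and is no measured size.

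A single library stood apart among the 5 channel libraries for 11 of 125 genes examined, by its gap to the nearest other divided by the whole range (Dixon's critical value 0.71). Chance flags about 1 gene in 20. Kv1.5 replicate 3 was lowest for CCBE1 (0.79), HCP5 (0.8), NUAK2 (0.77), PRC1 (0.79) and COL1A1 (0.85), and highest for AGR2 (0.79). For CSTA the ratio of 1 follows from a single count in that library and none in the other 4, and shows no library standing apart. Kv1.5 replicate 2 was lowest for SLC1A3 (0.73) and LINC00632 (0.72) and highest for MAGEB2 (0.82). Kir2.1 replicate 1 was highest for KRT18 (0.77) and Kir2.1 replicate 3 for CDH4 (0.79).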

How the results depend on the processing

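Against 2179 common higher and 1749 common lower genes, 5304 called genes and 738 that differed between the channel groups, fitting the 5 libraries as a single group gave 1048 common lower and 2810 called genes, and a threshold of 0.01 gave 1133, 2934 and 265 that differed. Leaving out each replicate in turn gave 1699 to 2600 common higher, 1327 to 2006 common lower, 3442 to 5781 called (lowest without RFP replicate 2) and 379 to 943 that differed, with 379, 391 and 474 without Kir2.1 replicate 2, Kir2.1 replicate 3 and Kv1.5 replicate 3. Where this left 1 Kv1.5 library, it was assumed to vary like the other groups. Of the 3928 common genes, 97.6% were shared with RLE factors, 96.3% with DESeq2, 98.9% with voom and 73.4% with Kir2.1 alone, the last a setting chosen after seeing the data. Deviations from group means correlated at -0.138 to 0.242 between same-number libraries and at -0.301 to 0.124 between libraries of different number. Whether replicate numbers pair the samples was thus not settled. With the replicate block 3883 genes were common, 3775 of them shared. Among named genes the block changed the call of CCNB1 alone (adjusted p = 0.059). For 123 named common genes, 2289 of 2334 values under alternatives kept their call, 45 lost it and 0 reversed. Named genes were in large part chosen by the size of their change in the main fit, which favours keeping the call. Over all common genes, 68.5% were kept with the 5 libraries as a single group, 66.8% at a threshold of 0.01 and 74.2% without RFP replicate 2.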

Other observations

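Long noncoding RNAs followed the share of all genes, with 290 of 2144 common higher (13.5%) and 206 common lower (9.61%). The genes named here were chosen after their values were seen, and the strand setting of the counting is not stated. LINC01088 stood at 0.143, 0.131 and 0.115 CPM in RFP, 5.17, 6.11 and 5.47 in Kir2.1 and 42.4 and 60.1 in Kv1.5. Every channel library was above the control, and the Kv1.5 libraries were above the Kir2.1 libraries. SNHG11 rose by 3.55 and HCP5, a transcript of the class I region, by 2.96 on the log2 scale. LINC00632 fell by 3.82 (log2 fold change -4.43 without Kv1.5 replicate 3), LINC01234 by 3.31 and MIRLET7BHG, the host transcript of let-7b, by 2.18.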
